A study of Mus musculus with 9 samples.

Results

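A set of 10 genes was followed through HSCs of young and early-aged mice: Cd69, S1pr1, Rgs1, Rgs2, Rgs16, Rgs18, Dusp1, Dusp2, Dusp5 and Dusp6. All but S1pr1, which encodes a receptor that CD69 holds back, restrain signaling or cell movement. The 10 genes are among the 56748 genes in the table of read counts and were found there by gene name. They had been chosen with measured values of these same libraries in view, so their differences between groups are given here as a description and not as a test of a prediction. RNA was sequenced from SLAM-HSCs (Lin-Sca1+c-Kit+CD48-CD150+) of C57BL/6 mouse bone marrow in 9 libraries, 3 in each group. yHSCs came from mice of 6 to 10 weeks. Selp low and Selp high paHSCs came from mice of 14 to 16 months and are fractions of one sorted compartment, separated by surface P-selectin, the adhesion molecule that Selp encodes. All mice were female, and the labels name no treatment or genetic change in any group. Levels are CPM, counts scaled to a common library size, scaled by TMM factors, which temper the weight of a few very abundant genes.

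CD69 is a C-type lectin that appears on leukocytes soon after stimulation and binds S1P receptor 1, the product of S1pr1, which it pulls from the cell surface. S1P receptor 1 senses sphingosine-1-phosphate, a lipid that draws blood cells out of tissues. RGS proteins speed GTP hydrolysis by Gα subunits and so shorten signals from G-protein-coupled receptors, whereas the DUSPs studied here are phosphatases that remove phosphates from MAP kinases. Many of these genes are themselves switched on by the signals they limit.

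Depth ranged from 24866975 to 35375310 counts per library, and 3 counts, the limit that a count of 0 allows, corresponded to 0.0695 to 0.198 CPM. All 12 HSC markers examined, among them Meis1 and Kit, were detected in every library, but their summed level moved with the groups: 1140 to 1889 CPM in Selp low, 2769 to 3953 CPM in Selp high and 1517 to 3153 CPM in yHSC libraries. Between the paHSC fractions 11 of the 12 were higher in the Selp high one (median log2 fold change 1.52) and 9 were lower in Selp low paHSCs than in yHSCs (median -1.19). The part of this in the differences below was not tested. The libraries were uneven. Between 21094 and 34143 genes had a count, with the fewest in yHSC replicate 2 and Selp high replicate 1, and the 10 most abundant genes took 44.8% of the counts in Selp low replicate 2 and 20.9% in Selp low replicate 3, against 3.90% to 12.5% elsewhere. Summed markers of B cells were 6285 and 8638 CPM in Selp low replicates 1 and 2, against 55.2 CPM in Selp low replicate 3 and 105 to 556 CPM in the other groups. Summed markers of neutrophils spanned 592 to 214269 CPM within Selp low paHSCs, with the highest value in replicate 3, and reached 65035 CPM in yHSC replicate 1. In bulk RNA, fewer cells of a type and less RNA per cell cannot be told apart.

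The regulatory sequence in front of these genes is shown for 4 of them, because they differ in the elements through which cAMP and serum signals act on early genes. RefSeq promoter entries (GRCm38.p6) matched 6 of the 10 genes: Rgs2, Rgs16, Dusp1, Dusp2, Dusp5 and Dusp6. The 250 bases before the annotated start are printed 5′ to 3′ on the gene's strand, with capitals at any match to a cAMP response element (CRE, TGACGTCA), its core motif (TGACG), an AP-1 site (TGACTCA), a CArG box or an NF-kB site, on either strand. A core motif inside a whole CRE counts for both.
Rgs2 (chr1:144004150-144004399, minus strand): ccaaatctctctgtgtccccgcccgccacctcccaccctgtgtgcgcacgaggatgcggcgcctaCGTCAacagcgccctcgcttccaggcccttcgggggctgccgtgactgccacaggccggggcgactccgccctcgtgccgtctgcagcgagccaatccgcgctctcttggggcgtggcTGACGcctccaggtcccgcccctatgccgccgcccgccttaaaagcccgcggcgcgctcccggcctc
Dusp1 (chr17:26508473-26508722, minus strand): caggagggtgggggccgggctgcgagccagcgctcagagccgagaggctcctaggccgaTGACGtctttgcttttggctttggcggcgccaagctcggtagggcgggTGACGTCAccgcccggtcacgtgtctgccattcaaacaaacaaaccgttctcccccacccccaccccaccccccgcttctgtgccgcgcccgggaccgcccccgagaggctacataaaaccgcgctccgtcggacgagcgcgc
Dusp2 (chr2:127335909-127336158, plus strand): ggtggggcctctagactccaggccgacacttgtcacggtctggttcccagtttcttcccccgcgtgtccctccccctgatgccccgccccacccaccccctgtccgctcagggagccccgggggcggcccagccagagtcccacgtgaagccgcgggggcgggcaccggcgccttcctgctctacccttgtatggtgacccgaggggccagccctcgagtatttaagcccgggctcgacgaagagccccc
Dusp5 (chr19:53528895-53529144, plus strand): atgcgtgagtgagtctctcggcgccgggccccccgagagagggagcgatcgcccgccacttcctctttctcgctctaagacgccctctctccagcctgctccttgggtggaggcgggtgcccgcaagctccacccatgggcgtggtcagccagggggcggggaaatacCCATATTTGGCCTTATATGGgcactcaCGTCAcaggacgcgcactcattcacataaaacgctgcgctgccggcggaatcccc

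The Dusp1 window held 1 whole CRE, 143 bases before the start, and a further core motif at 191 bases. A whole CRE occurred in 1.55% of 32851 promoter windows of the same length. The Dusp5 window held 2 adjoining CArG boxes, at 82 and 72 bases before the start, and a core motif at 55 bases; a CArG box occurred in 1.47% of all windows. Rgs2 had core motifs at 185 and 67 bases, a motif found in 17.8% of windows. The windows of Dusp2, Rgs16 and Dusp6 held none of these 5 motifs, which says only that these letters are absent from 250 bases. AP-1 and NF-kB motifs, present in 4.46% and 7.25% of windows, matched none of the 6 genes, and the TATAA core (22.8% of windows) matched Dusp5 alone, inside a CArG box on the opposite strand.

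Cd69 was abundant in yHSCs and Selp low paHSCs and low in every Selp high library. Cd69 (ENSMUSG00000030156) lies on chromosome 6 from 129244288 to 129252399 on the minus strand in the authors' file, whose build is mm39 per the submitters' processing notes. Its level was 407, 574 and 719 CPM in yHSC replicates 1, 2 and 3, 647, 316 and 220 CPM in Selp low replicates 1, 2 and 3, and 50.3, 37.0 and 50.8 CPM in Selp high replicates 1, 2 and 3. The Selp high libraries lay close together and below all others, while the Selp low libraries spanned the range from under the lowest to just under the highest yHSC library. Means over a group were 566 ± 156 CPM (SD, n = 3) for yHSCs, 394 ± 224 CPM for the Selp low fraction and 46.0 ± 7.85 CPM for the Selp high fraction. Cd69 stood at the 98.0th percentile of genes by level of yHSCs, the 94.7th of Selp low and the 71.8th of Selp high paHSCs.

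For Selp high paHSCs over yHSCs the log2 fold change of Cd69 was -3.64 (standard error 0.29), a 12.5-fold lower level, with an adjusted p of 0.0159 by edgeR's quasi-likelihood test over all genes. That call depended on single libraries: it was kept without yHSC replicate 1 (adjusted p = 0.0200) or Selp high replicate 1 (0.0396) and lost without any of the other 4 libraries (0.0664 to 0.132). In those 4 fits edgeR called 0 of all genes. The log2 fold change stayed between -3.81 and -3.49 whichever library was left out. Over Selp low paHSCs the change was -3.11 (standard error 0.46), with an adjusted p of 0.338 by edgeR and 2.00e-05 by DESeq2. edgeR's adjusted p was 0.0432 without Selp low replicate 3, 0.236 to 0.882 without any 1 of the other 5 libraries and 0.0835 with the replicate number as a block. Selp low over yHSCs gave -0.46 (standard error 0.46, adjusted p = 0.835 by edgeR). Lymphocytes also use Cd69. Summed B-cell markers were 192 to 556 CPM in Selp high libraries, and Selp low replicate 3, which had the lowest Cd69 of its group, had 55.2 CPM of them and the most neutrophil markers of all libraries. Summed T and NK cell markers were 405, 1010 and 641 CPM in Selp low replicates 1, 2 and 3, against 150 to 177 CPM in Selp high libraries. In Selp low replicate 3 a single gene, Nkg7, made up 619 CPM of the sum, and the other 11 markers came to 21.4 CPM, against 61.0 to 131 CPM in Selp high libraries. The part of these cells in the Cd69 difference was not tested.

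S1pr1 (ENSMUSG00000045092; chromosome 3, 115504082 to 115508721), the receptor that CD69 binds, was lower in Selp high paHSCs too, but less so. It was at 57.3, 164 and 160 CPM in yHSC replicates 1, 2 and 3, 203, 124 and 32.1 CPM in Selp low replicates 1, 2 and 3, and 55.8, 48.5 and 29.6 CPM in Selp high replicates 1, 2 and 3. Selp low replicate 3 fell within the Selp high range, so the paHSC fractions overlapped, and yHSC replicate 1 lay only just above the highest Selp high library. The difference on the log2 scale was -1.52 (standard error 0.45) in Selp high paHSCs over yHSCs, with an adjusted p of 0.381 by edgeR and 0.0489 by DESeq2, and -1.44 (standard error 0.63) over Selp low paHSCs. Per length of transcript (FPKM), Cd69 exceeded S1pr1 in all yHSC and Selp low libraries, with ratios of 1.63 to 3.33 and 1.19 to 3.21. In Selp high replicates 1, 2 and 3 the ratios were 0.422, 0.357 and 0.803. The ratio does not depend on scaling between libraries, but which gene is higher rests on the deposited gene lengths, and that of Cd69, 6509 bases, takes up most of its span of 8112 bases. By counts, with no length, the ratio was 0.902, 0.762 and 1.72 in Selp high replicates 1, 2 and 3, so Cd69 was above S1pr1 in the last, against 2.55 to 6.85 in Selp low and 3.49 to 7.11 in yHSC libraries. Both ratios were lower in each Selp high library than in any other.

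**Figure D1:**
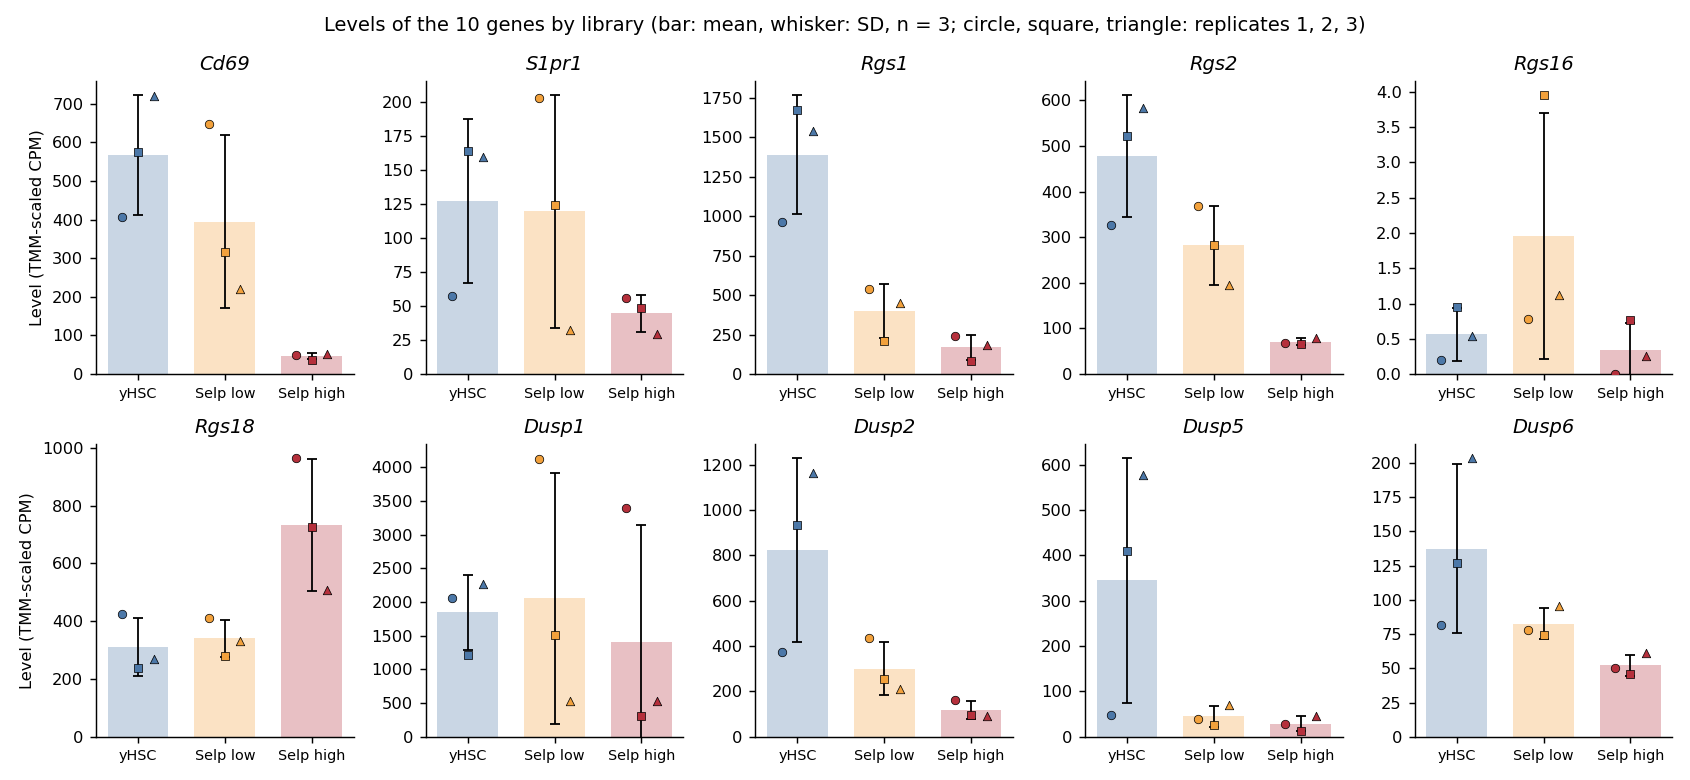
Level of each gene (vertical axis, TMM-scaled CPM, from 0) in the 3 groups. Bars are means and whiskers SD (n = 3, cut at 0), and circles, squares and triangles are replicates 1, 2 and 3. Cd69 and Rgs2 are tight and low in Selp high paHSCs, Rgs18 is highest there, and Dusp1 is split by replicate 1 in both paHSC fractions.

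The 4 Rgs genes did not move as a block. Rgs1, Rgs2 and Rgs18 lie on the same strand of chromosome 1 in a run of 5 Rgs genes that covers 776 kilobases (143875076 to 144651173), with Rgs13 and Rgs21 between them. Rgs13 and Rgs21 had at most 44 and 3 counts in any library. Rgs1 and Rgs2 were lowest and Rgs18 highest in Selp high paHSCs.

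Rgs1 (ENSMUSG00000026358), a regulator of chemokine receptor signals in leukocytes, was lower in both paHSC fractions than in yHSCs. In yHSC replicates 1, 2 and 3 it was at 961, 1672 and 1539 CPM. Selp low replicates 1, 2 and 3 had 539, 209 and 452 CPM, all below the yHSCs. Selp high replicates 1, 2 and 3 had 240, 82.2 and 185 CPM, and the highest of them passed the lowest Selp low library. The log2 fold change was -3.07 (standard error 0.45) in Selp high paHSCs over yHSCs, with an adjusted p of 0.0731 by edgeR and 5.76e-09 by DESeq2. Selp low paHSCs differed from yHSCs by -1.75 (standard error 0.43), with an adjusted p of 0.332 by edgeR and 0.0260 by DESeq2, and between the paHSC fractions -1.25 (standard error 0.51, adjusted p = 0.385 by edgeR).

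Rgs2 (ENSMUSG00000026360), which acts mainly on Gq, followed Cd69 closely. It was at 327, 523 and 583 CPM in yHSC replicates 1, 2 and 3, 368, 283 and 195 CPM in Selp low replicates 1, 2 and 3, and 67.7, 65.5 and 79.9 CPM in Selp high replicates 1, 2 and 3. As for Cd69, the Selp high libraries were nearly equal, with a highest to lowest ratio of 1.22, and all below the other 6. The log2 fold change in Selp high paHSCs was -2.77 over yHSCs (standard error 0.28, adjusted p = 0.0209 by edgeR) and -2.0 over Selp low paHSCs (standard error 0.31), with an adjusted p of 0.338 by edgeR and 0.00265 by DESeq2. The call over yHSCs was kept without yHSC replicate 1 (adjusted p = 0.0200) and lost without any other library (0.0815 to 0.177). The log2 fold change over yHSCs stayed between -2.96 and -2.65 in these fits. Selp low over yHSCs gave -0.69 (standard error 0.35, adjusted p = 0.520 by edgeR).

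Rgs18 (ENSMUSG00000026357), an RGS protein of the megakaryocyte lineage and platelets, ran the other way. Its levels were 424, 239 and 270 CPM in yHSC replicates 1, 2 and 3, 410, 280 and 331 CPM in Selp low replicates 1, 2 and 3, and 966, 728 and 509 CPM in Selp high replicates 1, 2 and 3. Every Selp high library lay above every other library. On the log2 scale the difference was 1.20 (standard error 0.36) over yHSCs and 1.10 (standard error 0.34) over Selp low paHSCs, with adjusted p-values of 0.386 and 0.338 by edgeR, and it was called by neither edgeR nor DESeq2. Selp low paHSCs over yHSCs gave 0.16 (standard error 0.33), which turned to -0.34 when libraries were scaled by their totals alone. Summed megakaryocyte and platelet markers were 1444 to 7973 CPM in Selp high, 192 to 2250 CPM in Selp low and 135 to 213 CPM in yHSC libraries, and their part in the Rgs18 difference was not tested.

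Rgs16 (ENSMUSG00000026475, chromosome 1 from 153616095), another regulator of chemokine signals, was close to the limit of detection. It had 6, 41 and 20 counts in yHSC replicates 1, 2 and 3, 24, 60 and 30 in Selp low replicates 1, 2 and 3, and 0, 31 and 9 in Selp high replicates 1, 2 and 3. None of its levels exceeded 3.95 CPM, and its log2 fold changes (-2.50 between the fractions, -0.75 and 1.85 in Selp high and Selp low paHSCs over yHSCs) carried standard errors of 0.96 to 1.59.

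Ratios within a library do not depend on the scaling between libraries. The ratio of Rgs1 to Rgs18 counts was 2.27, 7.0 and 5.70 in yHSC replicates 1, 2 and 3, 1.32, 0.747 and 1.37 in Selp low replicates 1, 2 and 3, and 0.249, 0.113 and 0.363 in Selp high replicates 1, 2 and 3. The 3 groups did not overlap in this ratio, a description only, since both genes were chosen with these libraries in view. The ratio of Cd69 to Rgs18 counts was 0.959 to 2.66 in yHSCs, 0.664 to 1.58 in Selp low paHSCs and 0.0508 to 0.0999 in Selp high paHSCs. Of the summed FPKM of the 4 Rgs genes, Rgs18 took 23.4% to 47.8% in yHSCs, 52.9% to 57.7% in Selp low paHSCs and 83.7% to 92.2% in Selp high paHSCs. The length deposited for Rgs1, 6947 bases, equals its whole span with introns, so its share per length may be understated, which was not tested.

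**Figure D2:**
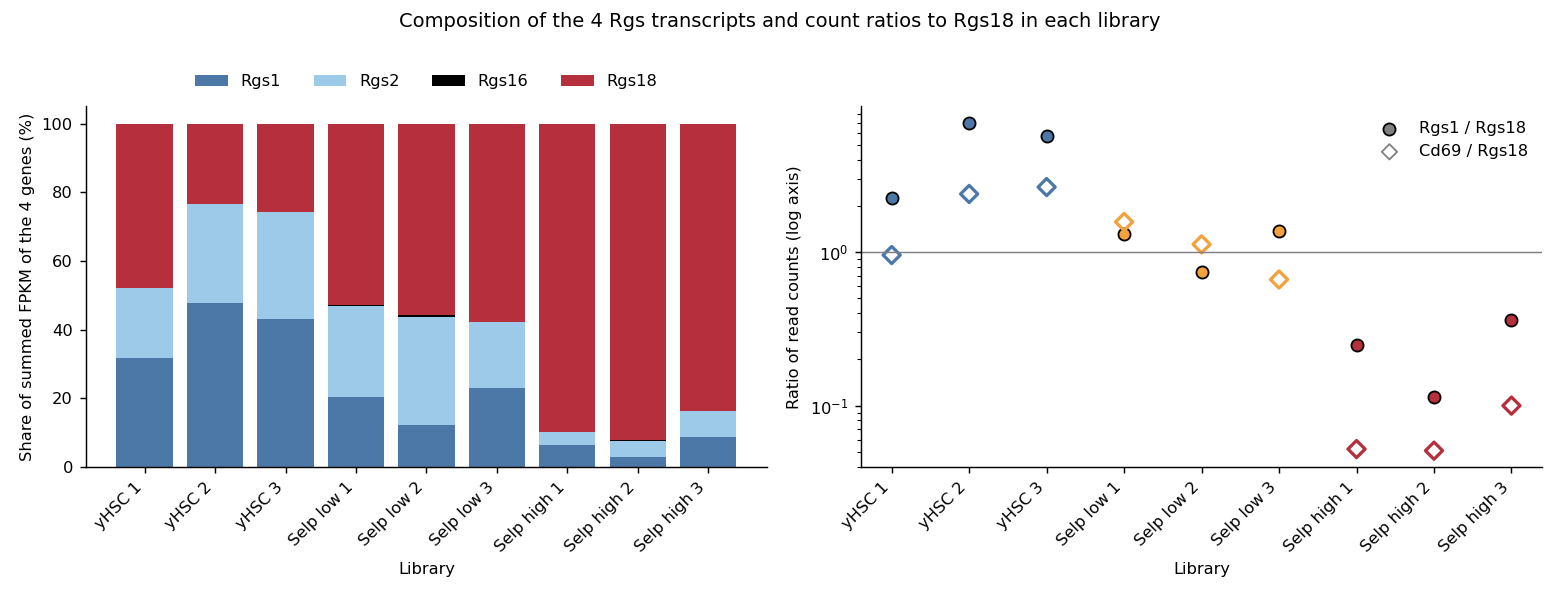
Left, share of each of Rgs1, Rgs2, Rgs16 and Rgs18 in their summed FPKM (percent) for the 9 libraries. Right, counts of Rgs1 (filled circles) and Cd69 (open diamonds) over those of Rgs18 in the same library (log axis, grey line at 1). Rgs18 is 83.7% to 92.2% of the sum in Selp high paHSCs, and both ratios are lowest there.

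The Dusp genes separated into Dusp2, Dusp5 and Dusp6, whose means were highest in yHSCs, and Dusp1, which followed single libraries. Dusp2 (ENSMUSG00000027368; chromosome 2, 127178079 to 127180296), a nuclear phosphatase of stimulated leukocytes, was at 374, 935 and 1164 CPM in yHSC replicates 1, 2 and 3, 435, 253 and 213 CPM in Selp low replicates 1, 2 and 3, and 162, 97.9 and 90.9 CPM in Selp high replicates 1, 2 and 3. The Selp high libraries lay below all others, and Selp low replicate 1 lay above yHSC replicate 1. Scaled by library totals alone the fractions overlapped, with 177 CPM in Selp high replicate 1 against 138 and 167 CPM in Selp low replicates 2 and 3. The log2 fold change was -2.83 (standard error 0.46) in Selp high paHSCs over yHSCs, with an adjusted p of 0.0993 by edgeR and 2.70e-07 by DESeq2. It was -1.37 (standard error 0.39) over Selp low paHSCs and -1.38 (standard error 0.49) in Selp low paHSCs over yHSCs. edgeR called Dusp2 in Selp high paHSCs over yHSCs without yHSC replicate 1 (adjusted p = 0.0425) and not without any 1 of the other 5 libraries (0.187 to 0.523). Its log2 fold change stayed between -3.16 and -2.56 in these fits.

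Dusp5 (ENSMUSG00000034765; chromosome 19, 53517540 to 53530862), a nuclear phosphatase of ERK with the paired CArG boxes shown above, was high in only 2 libraries. It was at 48.8, 409 and 578 CPM in yHSC replicates 1, 2 and 3, 38.2, 26.0 and 70.4 CPM in Selp low replicates 1, 2 and 3, and 27.7, 13.6 and 46.4 CPM in Selp high replicates 1, 2 and 3. yHSC replicate 1 was among the paHSCs, 11.8-fold under the highest yHSC library, and this replicate also had the highest neutrophil markers of its group, whose part in the value was not tested. The log2 fold change of -3.57 in Selp high paHSCs over yHSCs had a standard error of 0.87 (adjusted p = 0.254 by edgeR, 0.000190 by DESeq2). Selp low paHSCs differed from yHSCs by -2.88 (standard error 0.84), with an adjusted p of 0.337 by edgeR and 0.0187 by DESeq2, and between the fractions -0.62 (standard error 0.53, adjusted p = 0.668 by edgeR).

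Dusp6 (ENSMUSG00000019960; chromosome 10, 99099093 to 99103351), the cytoplasmic phosphatase of ERK, was at 81.7, 127 and 204 CPM in yHSC replicates 1, 2 and 3, 77.9, 74.4 and 95.8 CPM in Selp low replicates 1, 2 and 3, and 50.1, 46.0 and 61.0 CPM in Selp high replicates 1, 2 and 3. The Selp high libraries lay under all others in a narrow band, but scaled by library totals alone Selp low replicate 2, at 40.5 CPM, was below all 3 of them (54.7 to 64.1 CPM). On the log2 scale it differed by -1.40 (standard error 0.33) over yHSCs, with an adjusted p of 0.234 by edgeR and 0.00758 by DESeq2, and -0.67 (standard error 0.23) over Selp low paHSCs, which moved to -0.21 when libraries were scaled by their totals alone.

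Dusp1 (ENSMUSG00000024190, chromosome 17, 26724564 to 26781102) is a nuclear phosphatase of p38 and JNK whose promoter holds the CRE shown above. It had the highest mean FPKM of the 10 genes in each group, but not in each library. Dusp1 was below Rgs18 in Selp high replicates 2 and 3, at 91.2 and 161 FPKM against 358 and 251 FPKM. It was also below Rgs18 in Selp low replicate 3 and below Dusp2 in yHSC replicate 2. It was at 2058, 1220 and 2268 CPM in yHSC replicates 1, 2 and 3, 4125, 1505 and 529 CPM in Selp low replicates 1, 2 and 3, and 3400, 302 and 531 CPM in Selp high replicates 1, 2 and 3. Replicate 1 was far above the others in both paHSC fractions, with an 11.3-fold range in Selp high and a 7.80-fold range in Selp low paHSCs. Its log2 fold changes were therefore imprecise: -0.56 (standard error 1.06) between the fractions, -0.41 (standard error 0.83) in Selp high paHSCs over yHSCs and 0.21 (standard error 0.73) in Selp low paHSCs over yHSCs. Without Selp high replicate 1 the first 2 became -2.31 and -2.18, and without Selp low replicate 1 the first turned to 0.51. Dusp1 made up 35.4% to 72.8% of the summed FPKM of the 4 Dusp genes in yHSCs, 49.1% to 82.9% in Selp low paHSCs and 56.9% to 90.5% in Selp high paHSCs.

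Taking the 10 genes as a list, all passed the filter on low counts in each comparison. Between Selp high and Selp low paHSCs 9 were lower and 1 was higher, and the median change was -1.31 on the log2 scale against -0.11 over 20370 genes tested. DEGs were genes that changed by at least 1 on the log2 scale at an adjusted p no higher than 0.05. By edgeR 0 of the 10 were DEGs, as were 0% of all genes in the lower direction, while 6 of the 10 had an unadjusted p under 0.05, against 12.5% of all genes. DESeq2 called Cd69 and Rgs2, against 1.53% of genes called lower by that tool. Libraries did not overlap for 5 lower genes (Cd69, Rgs2, Rgs16, Dusp2 and Dusp6), a pattern seen in 10.6% of genes, and for Rgs18, the higher one, in 10.3%. Scaled by library totals alone, Rgs16, Dusp2 and Dusp6 overlapped, and Cd69 and Rgs2 stayed apart (2.72% of genes), as did Rgs18 (18.2%). Where 3 libraries meet 3, a 2-sided exact permutation test cannot give a p under 0.1.

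In Selp high paHSCs over yHSCs 9 of the 10 were again lower, with a median of -2.15 against -0.03 over 20017 genes. edgeR called Cd69 and Rgs2, against 0.0599% of all genes called lower. DESeq2 called 7 (Cd69, S1pr1, Rgs1, Rgs2, Dusp2, Dusp5 and Dusp6), against 1.03% of genes. The same 7 had libraries that did not overlap, against 5.28% of genes in that direction, and Rgs18 did so in the other (8.52%). These 8 also stayed apart when scaled by library totals alone (6.58% and 7.87% of genes). This comparison shares its Selp high libraries with the one between the fractions, so the counts of the 2 are not independent. Since the genes were selected on these libraries, the counts are descriptions only.

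In Selp low paHSCs over yHSCs 7 genes were lower and 3 higher, with a median of -0.57 against 0.08 over 20437 genes. edgeR called 0 of the 10 (0% of all genes lower), with 3 at an unadjusted p under 0.05 (11.3% of all genes), and DESeq2 called Rgs1 and Dusp5, against 0.965% of genes. Only Rgs1 had libraries that did not overlap in the lower direction (6.74% of genes) and 0 of the 10 did in the higher one (9.59%). Scaled by library totals alone, Dusp5 and Dusp6 were apart in the lower direction as well (17.7% of genes), and 0 were in the higher one (1.65%). Cd69 differed here by about 1 standard error and S1pr1 by far less. Of the 9 members other than Rgs16, 8 had one of their 3 highest levels in yHSC replicate 3 and 7 in yHSC replicate 2, and 8 had one of their 3 lowest in Selp high replicate 2 and 7 in Selp high replicate 3.

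**Figure D3:**
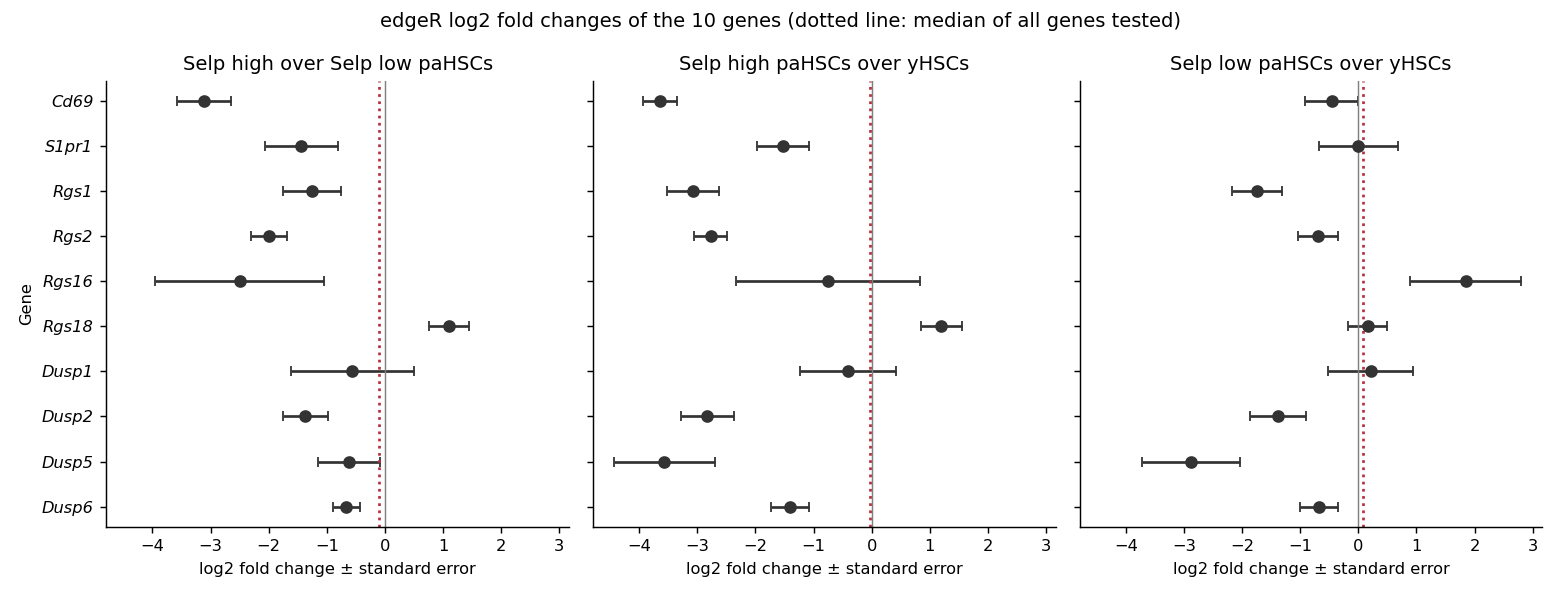
log2 fold change (horizontal axis) with its standard error from edgeR for each gene in the 3 comparisons. The dotted line is the median of all genes tested. Between the paHSC fractions and over yHSCs, Selp high values lie left of the line for 9 genes and right of it for Rgs18, and the Dusp1 bars cross 0 in all 3 panels.

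Over the 9 libraries Cd69 and Rgs2 ran nearly in parallel (Pearson's r of log2 CPM 0.988, Spearman's rho 0.983), and Rgs2 was the most similar to Cd69 among 13118 protein-coding genes. The next were Etv3, Otulinl, Arhgap15 and Satb1, with r from 0.944 to 0.959. The genes most like Rgs1 were Bclaf3, Btg3, Baz2b, Clnk and Zbtb21 (r from 0.943 to 0.973). Those most like Dusp1 were Gtf3c6, Zfand6, Ccdc130, Ripk2 and Ppp1r15a (r from 0.959 to 0.983), and Ppp1r15a, a regulator of the stress response, showed the split of Dusp1 with 1575 CPM in Selp low replicate 1 and 1263 CPM in Selp high replicate 1 against 207 to 609 CPM in the other 4 paHSC libraries. By Spearman's rho, 1 gene of the 5 for Cd69 stayed among the first 5, with 2 of 5 for both Rgs1 and Dusp1. Rgs18 ran opposite to Rgs2 (r = -0.871) and Cd69 (r = -0.828). These correlations describe 9 libraries that share depth, group and cell content.

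Immediate early genes are transcribed within minutes of a stimulus, and a list of 30 that holds none of the 10 members leaned lower in Selp high paHSCs. Between the fractions 28 of 29 tested were lower, with a median log2 fold change of -1.06. Over yHSCs all 30 were lower, with a median of -1.11, whereas Selp low paHSCs had 15 lower and 15 higher (median -0.00). Among all genes tested 55.2% were lower between the fractions, 52.2% in Selp high and 44.9% in Selp low paHSCs over yHSCs. Like the members, the list was chosen with earlier results of these data known, so these counts are descriptions only. edgeR called 0 of the listed genes in any comparison. At an unadjusted edgeR p under 0.05 were 10, 13 and 2 in the same order, against 12.5%, 7.59% and 11.3% of all genes. DESeq2 called Egr3, a zinc finger factor, between the fractions (edgeR log2 fold change -2.32, standard error 0.63, DESeq2 adjusted p = 0.0208) and 6 genes lower over yHSCs: Nr4a1, Nr4a3, Fosl2, Csrnp1, Btg2 and Jun. Among all genes DESeq2 called 1.53% lower between the fractions and 1.03% lower over yHSCs. Nr4a1, an orphan nuclear receptor, had mean levels of 2006 CPM in yHSCs, 446 in Selp low and 206 in Selp high paHSCs. Its libraries spanned 543 to 3048, 131 to 740 and 35.4 to 305 CPM in the same order. Jun, a component of AP-1, had means of 1553, 1509 and 634 CPM. The summed level by library followed Dusp1 in part. It was 11317, 17957 and 20188 CPM in yHSC replicates 1, 2 and 3, 23019, 12495 and 10069 CPM in Selp low replicates 1, 2 and 3, and 14386, 3319 and 7015 CPM in Selp high replicates 1, 2 and 3. Replicate 1 was highest in both paHSC fractions for the list and for Dusp1, but not for Rgs2 or Cd69 in Selp high paHSCs.

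**Figure D4:**
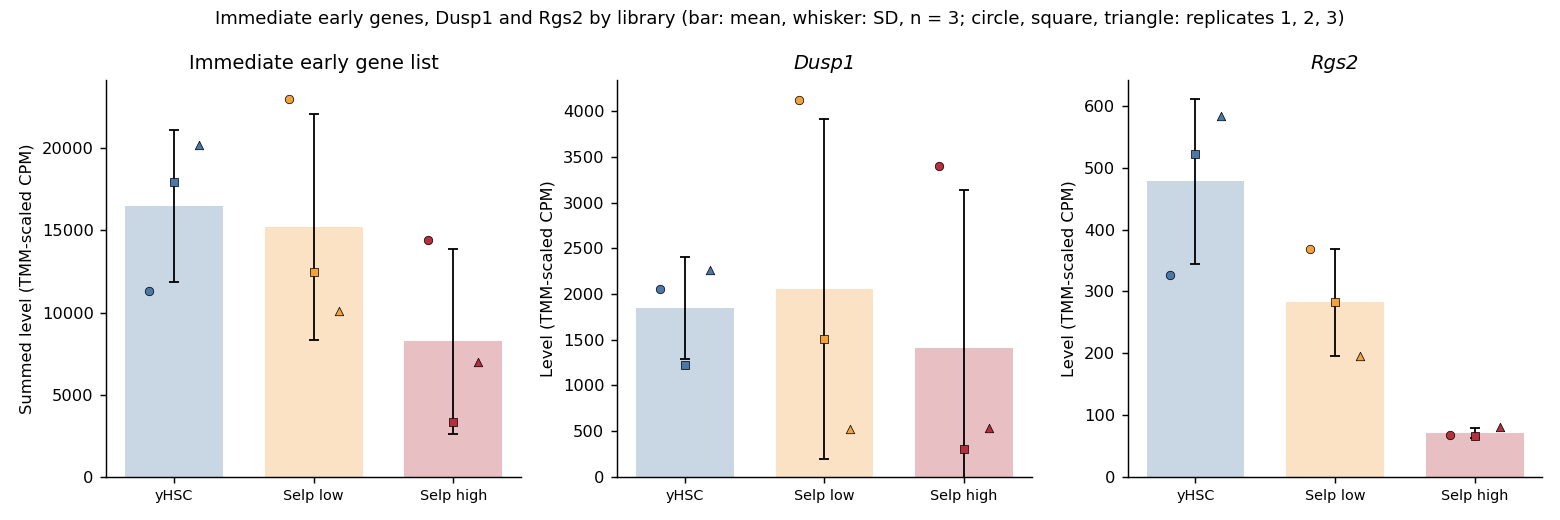
Summed level of the immediate early gene list, and levels of Dusp1 and Rgs2 (vertical axes, TMM-scaled CPM, from 0) by group. Bars are means and whiskers SD (n = 3, cut at 0), and circles, squares and triangles are replicates 1, 2 and 3. Selp high replicate 1 reaches 14386 CPM for the list and 3400 CPM for Dusp1 but only 67.7 CPM for Rgs2.

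Relatives of the members moved in both directions, and edgeR called 0 genes of these lists. All fold changes and standard errors given for them are edgeR's. Of the other MAP kinase phosphatases 3 of 6 were lower in the Selp high than the Selp low fraction and 5 of 6 were lower there than in yHSCs, and edgeR called 0, with 1 at an unadjusted p under 0.05 in each case. DESeq2 called Dusp8, a phosphatase of JNK and p38, over yHSCs (log2 fold change -2.76, standard error 0.61, adjusted p = 0.000336 by that tool). Among 12 other dual specificity phosphatases, 8 were higher in Selp high paHSCs than in yHSCs, and DESeq2 called Dusp14 (log2 fold change 4.96, standard error 1.54). Dusp14 was at 0.273 CPM on average in yHSCs and at 4.65, 19.3 and 1.03 CPM in Selp high replicates 1, 2 and 3. That Selp high mean of 8.31 CPM became 2.84 CPM without replicate 2 (log2 fold change then 3.38). In Selp low paHSCs the Dusp14 mean was nearly as high, 7.91 CPM (0.0749 to 20.5 CPM), and 1.63 CPM without replicate 2. Of the other RGS genes 8 of 13 were lower in Selp high paHSCs than in yHSCs. Rgs10, a small RGS protein of blood cells and platelets, rose by DESeq2 alone from a mean of 4.99 CPM to 63.0 CPM (log2 fold change 3.64, standard error 0.82). Selp high replicate 2 held 132 CPM of it, and without that library the mean was 28.4 CPM and the log2 fold change 2.47. The Selp low mean of Rgs10 was 22.2 CPM, with libraries from 5.93 to 35.5 CPM. Rgs11 was called lower by DESeq2 in Selp low paHSCs over yHSCs (-2.40, standard error 0.48).

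The signaling parts that the members act on had list medians near 0, apart from the ERK feedback genes. For the counts below, an unadjusted p under 0.05 by edgeR was held by 12.5% of all genes between the fractions. Over yHSCs the share was 7.59% for Selp high and 11.3% for Selp low paHSCs. Genes lower than in yHSCs made up 52.2% of all genes tested in Selp high and 44.9% in Selp low paHSCs. Of 20 subunits of heterotrimeric G proteins 13 were higher in Selp high paHSCs than in yHSCs (median 0.08), with Gnaz, the Gz subunit of platelets, at 3.09 (standard error 0.58) and Gng11 at 2.44 (standard error 0.50) called by DESeq2. edgeR and DESeq2 called 0 MAP kinases in any comparison, with 0, 0 and 1 at an unadjusted p under 0.05 by edgeR, and the list medians were between -0.21 and 0.29. ERK feedback genes, 2 of which (Egr1 and Ier3) are also on the immediate early list, were lower than in yHSCs for 12 of 14 in Selp high and for 13 of 13 in Selp low paHSCs (medians -0.80 and -0.82), and 0 were called by either tool, with 2 and 3 at an unadjusted p under 0.05 by edgeR. Of the S1P genes, Spns2, a transporter that exports S1P, had means of 403 CPM in yHSCs, 91.5 in Selp low and 237 CPM in Selp high paHSCs. Its libraries spanned 97.0 to 573, 76.5 to 99.4 and 198 to 265 CPM in the same order, so the lowest yHSC library was below every Selp high one. DESeq2 called Spns2 higher in the Selp high than the Selp low fraction (1.37, standard error 0.25, adjusted p = 0.0425). Mfsd2b, the S1P exporter of red cells and platelets, rose by DESeq2 in Selp high paHSCs over yHSCs (3.10, standard error 0.75). Means of Mfsd2b were 24.5 CPM in yHSCs, 141 CPM in Selp low and 217 CPM in Selp high paHSCs. The Selp low libraries spanned 17.6 to 208 CPM. Without Selp high replicate 2 the Selp high mean was 138 CPM (log2 fold change then 2.43). Klf2, an activator of S1pr1 transcription, was at 297 CPM in yHSCs, 426 in Selp low and 141 CPM in Selp high paHSCs (log2 fold change between the fractions -1.62, standard error 0.74, adjusted p = 0.432 by edgeR). Without the highest library of each fraction, replicate 1 in both, the Selp low mean was 295 CPM and the Selp high mean 91.7 CPM. The groups overlapped, at 91.0 to 442 CPM in yHSCs, 113 to 690 CPM in Selp low and 61.9 to 239 CPM in Selp high paHSCs. Heat shock genes, listed as a sign of stress, had medians of -0.02 and 0.29 in Selp high paHSCs over Selp low paHSCs and yHSCs. Of the 13 tested, 6 and 11 were higher in the same order. In these comparisons 0 were called by either tool, with 0 and 1 at an unadjusted p under 0.05 by edgeR. Their summed level was 6057 to 6309 CPM in Selp high, 4602 to 6973 CPM in Selp low and 4573 to 5848 CPM in yHSC libraries.

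**Figure D5:**
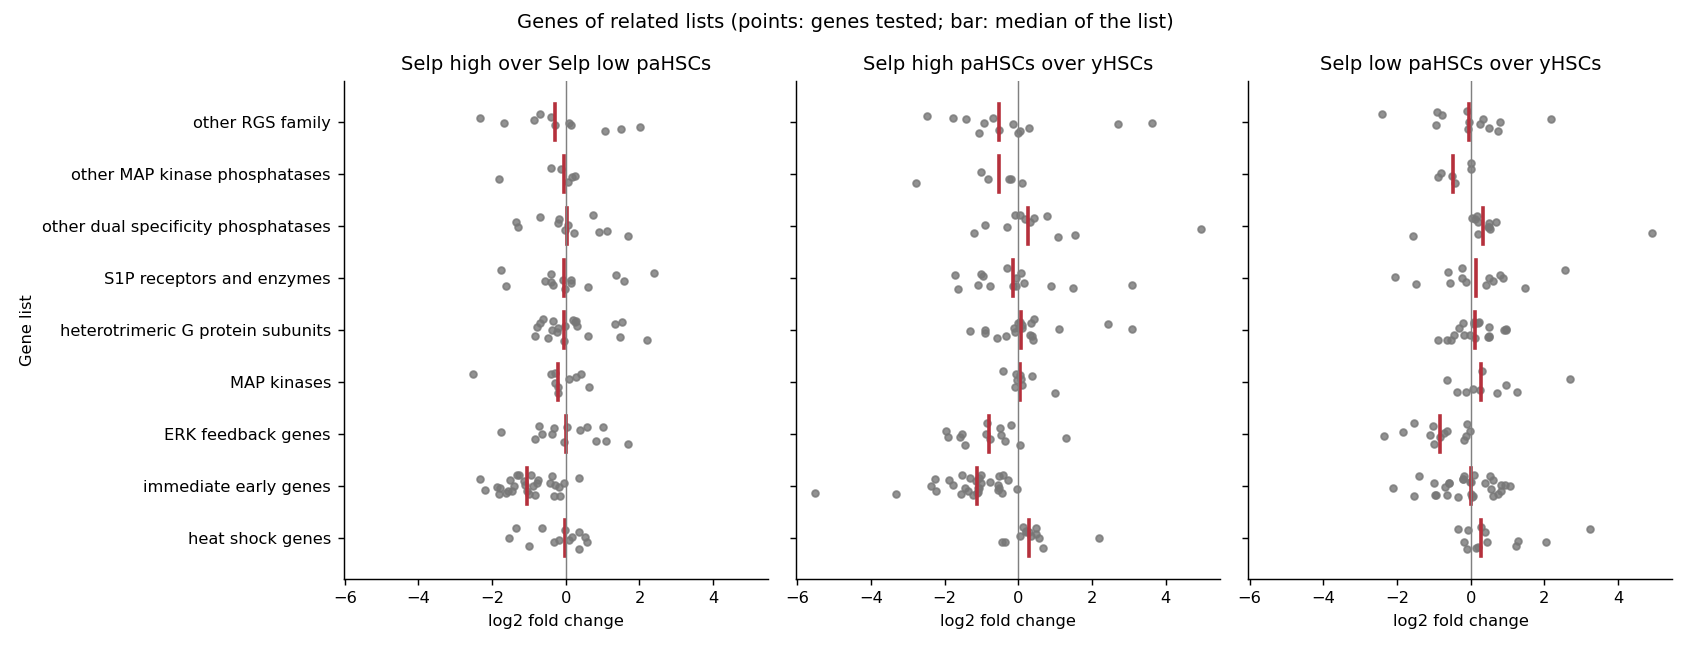
log2 fold change from edgeR (horizontal axis) of each tested gene (points) in 9 related lists, with the list median (bar), in the 3 comparisons. The immediate early genes lie almost wholly left of 0 in both comparisons that hold Selp high paHSCs, with medians of -1.06 and -1.11, and the ERK feedback genes in both comparisons with yHSCs.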

How the data were processed

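RNA was extracted with the RNeasy Mini kit, amplified with the SMARTer Ultra Low kit and made into libraries with TruePrep V2. Per the study's methods and the submitters' processing notes, reads were trimmed by the authors (fastp), mapped to mm39 (HISAT2 v2.2.1) and then counted per gene (featureCounts v2.0.6). The deposited values are raw counts of 56748 genes, beside a gene length. What annotation, strandedness and rule for multi-mapping reads applied is not given in the sources used here. Reads of overlapping genes cannot be told apart. The study's own differential analysis used DESeq2. Of the per-sample columns, 0 were left unused.

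Groups came from the library titles. Analyses used R 4.3.3, edgeR 4.0.16 and DESeq2 1.42.0, with figures in Python 3.11.15 and matplotlib 3.10.9. The groups were fitted 2 at a time, using TMM factors, filterByExpr, edgeR's quasi-likelihood test (legacy setting) and Benjamini-Hochberg adjustment over all genes tested. Levels are CPM, or FPKM with the deposited lengths, and the log2 scale used a prior count of 2. Promoter coordinates are GRCm38.p6 and were not converted. The scripts were tested on simulated data. The study calls the libraries independent samples. Limits at a count of 0 cover counting error only.

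The members and gene lists were chosen with earlier results of these data known. Named genes were all members; of each list those called and up to 3 with the largest change; of each marker list at most its 3 most abundant; and the 5 genes most like Cd69, Rgs1 and Dusp1 among protein-coding genes with a mean CPM of at least 1. Egr1, Ier3, Rgs13 and Rgs21 are named outside this rule. One marker is not reported here. Ages are from the study's text. Residuals of equal replicate numbers correlated at 0.177, 0.277 and 0.303 between Selp high and Selp low paHSCs, all above the 0.1 taken as pairing, and at -0.417 to 0.0917 against yHSCs. Alternatives covered normalization, the filter, DESeq2, 1 fit of all 9 libraries, a replicate block, no fold minimum, libraries left out and scaling of levels by totals. Another 3 were added after the data were seen: 2 that each leave out a pair of libraries, and overlap of libraries scaled by totals. Other assays of the study were not analysed here.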

Additional observations from a re-analysis of the deposited data

How the results depend on the processing

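Of 150 log2 fold changes of members recomputed in each comparison, 145, 148 and 146 moved by less than 1 SD between replicates between the paHSC fractions, between Selp high paHSCs and yHSCs and between Selp low paHSCs and yHSCs. Signs changed in 1, 3 and 15 of them, for Dusp1, Rgs16, Rgs18 and S1pr1 only. The 150 are not all separate: leaving out a pair of libraries repeats a single leave-out where a comparison holds only 1 of the pair. Some of the 15 sign changes are therefore repeats, those without yHSC replicate 2. Scaling by library totals moved the median of all genes from -0.11 to 0.37 between the paHSC fractions and from 0.08 to -0.47 in Selp low paHSCs over yHSCs, and took Rgs18 in the latter from 0.16 to -0.34. Counts of called members for the 3 comparisons, in the order above, were 0, 2 and 0. They were 2, 7 and 1 without the filter on low counts and 2, 7 and 2 by DESeq2. Leaving out 1 library gave 0 to 1, 0 to 3 and 0. The replicate block, apt between the paHSC fractions only, left 0 there and gave 0 in Selp high paHSCs over yHSCs, where equal numbers share only a number. With the block, adjusted p-values by edgeR between the fractions were 0.0835 for Cd69, 0.0882 for Dusp2, 0.0896 for Rgs2 and 0.0919 for Rgs1. Those of the other members were 0.147 to 0.462. Among all genes, the counts of 0, 33 and 0 became 193, 472 and 365 without the filter and 589, 596 and 517 by DESeq2. The block gave 9, 0 and 0, and 1 fit of all libraries gave 19 for Selp high paHSCs over yHSCs. Leaving out 1 library gave 0 to 50, 0 to 36 and 0 to 118; the highest were without Selp low replicate 3, Selp high replicate 1 and Selp low replicate 3. Without yHSC replicate 2 and Selp high replicate 1, the libraries with the fewest genes detected, Selp high paHSCs over yHSCs had 0 called members and 0 called genes. Without yHSC replicate 1 and Selp low replicate 3, those richest in neutrophil markers, Selp low paHSCs over yHSCs had 1 called member and 1450 called genes. Each other comparison holds only 1 of these libraries. Its counts repeat a single leave-out: 1 member and 50 genes between the paHSC fractions, 3 members and 24 genes in Selp high paHSCs over yHSCs. The causes were not tested. Of the group mean levels, that of Dusp6 in Selp low paHSCs moved by more than 1 SD with scaling by totals, from 82.7 to 66.8 CPM. Rgs16, with 0 to 60 counts, is the member that depth limits.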
